A study of Rattus norvegicus with 6 samples.

Results

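The miR-101 family of the rat comprises 2 mature microRNAs (miRNAs), rno-miR-101a-3p and rno-miR-101b-3p, written here as miR-101a-3p and miR-101b-3p. Small RNA reads were assigned to a member when their first 18 bases equalled those of its mature sequence, and reads that started 1 base earlier or 1 base later were collected as shifted forms. These 2 were among 674 miRNA features that could be separated by their first 18 bases, and they took up 571 of the 1528721 different read sequences (tags) in the 6 libraries. Small RNA was sequenced from the livers of 3 Wistar rats with non-alcoholic fatty liver disease (NAFLD) and 3 normal Wistar rats, with 1 library per rat. By the study's methods the NAFLD rats were fasted and then refed a starch-rich diet, and the livers sequenced were those with higher hepatic triglycerides, whereas the normal rats ate a standard diet and were picked at random. The labels give an age of 4 months for all 6 rats, while the methods describe older animals. The study also measured hepatic triglycerides and examined stained liver sections. By its methods it further compared known miRNAs between the groups by TPM and measured miRNAs by qRT-PCR relative to U6. NAFLD here is the study's name for livers of its fasted and refed rats. Neither the labels nor the methods name a transgene or a deletion.

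A miRNA directs the silencing complex to messenger RNAs by pairing through its seed, the bases 2 to 8 counted from its 5′ end, so a start that moves by 1 base exchanges the seed. Mature miRNAs are cut from a hairpin precursor, first by Drosha and then by Dicer, and the 3′ end can afterwards be shortened or receive added bases. The miR-101 family is best known for repressing Ezh2, the methyltransferase of Polycomb repressive complex 2, and has been studied as a growth-restraining miRNA in liver.

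The mature sequences are shown first because both members share 1 seed and are told apart by a single base. Capitals mark bases 2 to 8, and miR-144-3p, an erythroid miRNA, is set beside them because its start resembles theirs.
miR-101a-3p: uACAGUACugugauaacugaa
miR-101b-3p: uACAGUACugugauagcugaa
miR-144-3p: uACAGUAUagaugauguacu
Counted from 1 at the 5′ end, the substitution from miR-101a-3p to miR-101b-3p is A16G, outside the seed, and both have 21 bases. The sequences are from RefSeq on the rat build GRCr8, where miR-101a-3p lies at chr5:121081691-121081711 on the minus strand and miR-101b-3p at chr1:236273982-236274002 on the plus strand. The gene Mir101a overlaps the non-coding gene LOC120102934 and has Jak1 and LOC134479017 as its protein-coding neighbours. Mir101-2, the source of miR-101b-3p, lies within the span of the protein-coding gene Rcl1, between Ak3 and Jak2, and whether it is exonic or intronic was not read here.

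The hairpins are shown because the bases around the mature arm decide which read ends count as genomic. Capitals mark the mature 3p arm.
miR-101a hairpin: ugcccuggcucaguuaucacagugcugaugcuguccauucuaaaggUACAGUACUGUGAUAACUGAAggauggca
miR-101b hairpin: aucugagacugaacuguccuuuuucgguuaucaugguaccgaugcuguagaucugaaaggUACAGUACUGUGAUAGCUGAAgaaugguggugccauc
Both hairpins have G just before the mature arm. After it, the miR-101a hairpin continues with GGAT and the miR-101b hairpin with GAAT, written as DNA. Reads that start at mature base 1 have the seed ACAGUAC, reads that start 1 base earlier UACAGUA and reads that start 1 base later CAGUACU. Of the 693 mature rat miRNA names, 0 outside the family had any of these 3 seeds at bases 2 to 8, and miR-144-3p shared bases 2 to 7 of the seed at the mature start.

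The libraries held 11601058 to 11880695 clean reads. Different tags numbered 413022, 457464 and 467746 in NAFLD 1, 2 and 3 and 237702, 264974 and 221610 in normal 1, 2 and 3. Every NAFLD library thus held more different tags than every normal library, and whether this bears on the values below was not tested. The libraries also fell into 2 sets by base substitutions, a division already known from an earlier analysis of these files. Measured at read position 4 over 50 abundant tags, the median substitution rate was 1.36% to 1.52% in NAFLD 2, NAFLD 3 and normal 2 (the high set) and 0.0403% to 0.0546% in NAFLD 1, normal 1 and normal 3 (the low set). Exact matching loses reads with a substitution, so values are given across and within these sets. Each within-set difference has a single library on one side, NAFLD 1 in the low set and normal 2 in the high set. The hepatocyte marker miR-122-5p, at 445063 to 595583 reads per 1000000 clean reads (TPM), was the leading miRNA in every library.

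miR-101b-3p was the more abundant member in each liver, and when tags were matched exactly the NAFLD and normal values of both members overlapped and neither passed the test. miR-101a-3p had 420, 252 and 341 TPM in NAFLD 1, 2 and 3 and 427, 257 and 417 TPM in normal 1, 2 and 3. The lowest NAFLD and the lowest normal value lay close together and the groups overlapped, with means of 338 ± 83.9 and 367 ± 95.6 TPM (SD, n = 3 each). miR-101b-3p had 2818, 2050 and 2475 TPM in NAFLD 1, 2 and 3 and 3464, 2569 and 3103 TPM in normal 1, 2 and 3. NAFLD 1 exceeded normal 2, so these groups overlapped as well, with means of 2448 ± 385 and 3045 ± 450 TPM. The miR-101b-3p means differed by -597 TPM (NAFLD minus normal), more than either SD, with an exact permutation p of 0.2. Groups that did not overlap, with NAFLD lower, were found for 1.2% of 167 tested miRNAs, and with NAFLD higher for 2.99%, and neither member was among them. By mean level over the 6 libraries, miR-101b-3p ranked 9 and miR-101a-3p ranked 24 among 365 detected miRNAs.

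**Figure D1:**
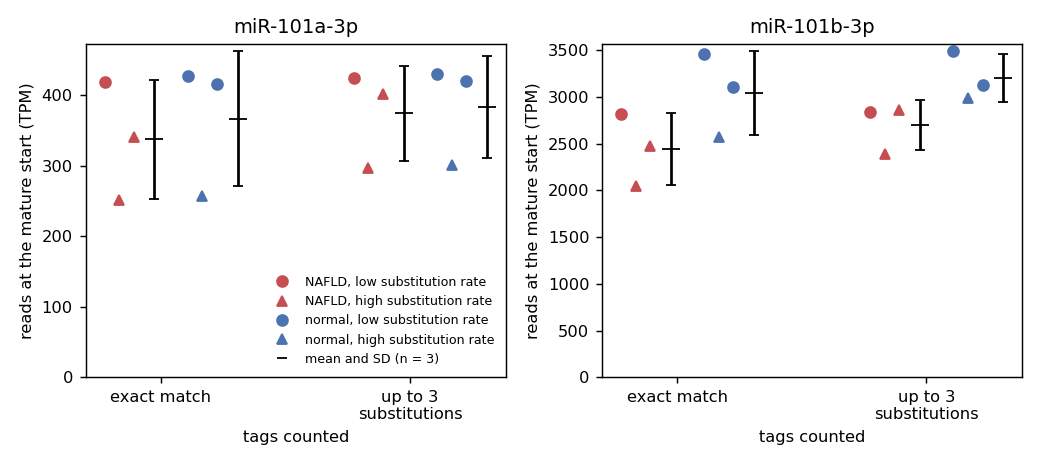
Levels of miR-101a-3p and miR-101b-3p in TPM (y axis) for 3 NAFLD and 3 normal libraries, counted by exact match and with up to 3 substitutions (x axis). Points are single libraries (circles low, triangles high substitution set) and bars are means with SD, and by exact match NAFLD and normal points overlap for both members, and with up to 3 substitutions those of miR-101b-3p do not.

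In the fit over all 167 miRNAs with enough reads, edgeR's quasi-likelihood test gave a log2 fold change (NAFLD over normal) of -0.12 (SE 0.40) for miR-101a-3p, with a Benjamini-Hochberg adjusted p of 0.986. For miR-101b-3p the edgeR log2 fold change was -0.32 (SE 0.26), also with an adjusted p of 0.986. The median over all tested miRNAs was 0.02. Thus 0 of the 2 members passed, against 0.599% of all tested miRNAs (1 of 167, miR-122-5p), and 0 of the 2 had an unadjusted p under 0.05, which 3 of 167 (1.8%) did. In bulk tissue, fewer cells of a type and less of a miRNA per cell cannot be told apart.

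The substitution sets were farther apart than the disease groups. miR-101a-3p was at 421 ± 5.48 TPM in the low set and 283 ± 50.3 TPM in the high set (SD, n = 3 each), and miR-101b-3p at 3128 ± 324 and 2365 ± 277 TPM. Both members had every high-set library below every low-set library, as did 42.5% of the 167 tested miRNAs (71 of 167). Within the low set NAFLD minus normal was -2.26 TPM for miR-101a-3p and -465 TPM for miR-101b-3p, and within the high set 39.96 TPM and -306 TPM, so that only miR-101b-3p was lower in NAFLD in both sets.

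Counting with substitutions allowed brought the miR-101b-3p groups apart. With up to 3 substitutions and base 16 kept exact, a count chosen after the data were seen, miR-101b-3p had 2842, 2392 and 2863 TPM in NAFLD 1, 2 and 3 and 3489, 2992 and 3123 TPM in normal 1, 2 and 3. Every NAFLD liver was below every normal liver, with means of 2699 ± 266 and 3201 ± 257 TPM and an exact permutation p of 0.1, the smallest that 3 against 3 allows. Other miRNAs were not counted with up to 3 substitutions, so no share over all miRNAs stands beside this separation. With 1 substitution allowed the groups were also apart, as they were with NAFLD lower for 4.79% of the 167 tested miRNAs, and edgeR gave a log2 fold change of -0.25 (SE 0.18, adjusted p = 0.731). In that fit 0 of the 2 members passed, against 0.578% of 173 tested miRNAs, and 8.09% of the 173 had an unadjusted p under 0.05. miR-101a-3p with up to 3 substitutions still overlapped, at 374 ± 68.1 TPM in NAFLD and 384 ± 72.1 TPM in normal.

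The proportion of the family made up by miR-101b-3p does not depend on the library total. It was 87.0%, 89.1% and 87.9% in NAFLD 1, 2 and 3 and 89.0%, 90.9% and 88.2% in normal 1, 2 and 3. The groups overlapped, with means of 88.0% ± 1.01 and 89.4% ± 1.41 (SD, n = 3 each) and a difference of -1.37 percentage points (exact permutation p = 0.3, 0.7 after adjustment over 7 tests of shares and lengths). The difference was -1.55 points within the low set and -2.45 points within the high set. miR-101b-3p exceeded miR-101a-3p in 6 of 6 libraries, by 6.72-fold to 10.01-fold in TPM (exact sign-flip permutation p = 0.03125, the smallest that 6 libraries allow). This and the other contrasts between the members were chosen after their values were seen.

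Since 1 base separates the members, reads of miR-101a-3p with an A-to-G substitution at base 16 would be counted as miR-101b-3p. The 5 other A positions among the 18 matched bases of miR-101a-3p carried on average 0.8 to 44.4 A-to-G reads per position and library, and at most 219. These compare with 24109 to 41058 miR-101b-3p reads per library. In the opposite direction, bases 5, 10 and 12 of miR-101b-3p carried 0 to 9 G-to-A reads per position and library. These compare with 2962 to 5064 miR-101a-3p reads. In the high set, A-to-G reads of miR-101a-3p numbered 151 to 219 at base 4 and 0 to 1 at base 15. Other positions therefore do not give the rate at base 16. Reads with C at base 16, which belong to neither sequence, numbered 550, 893 and 660 in NAFLD 2, NAFLD 3 and normal 2 and 4 to 5 in the low set.

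The starts of the reads differed between the members. The most frequent tags of each start are shown because the seed, in capitals, is exchanged with the start, here written as DNA. The miR-101a-3p tag that started 1 base late is left out, with at most 9 reads of that start in any library.
miR-101a-3p, mature start: tACAGTACtgtgataactga
miR-101a-3p, 1 base earlier: gTACAGTActgtgataactga
miR-101b-3p, mature start: tACAGTACtgtgatagctgaag
miR-101b-3p, 1 base earlier: gTACAGTActgtgatagctga
miR-101b-3p, 1 base later: aCAGTACTgtgatagctgaagt
The base in front of the earlier starts was nearly always the G of the hairpin. For miR-101a-3p in NAFLD 1, the library with its lowest proportion, 1769 of the 1778 such reads began with G, and for miR-101b-3p the proportion was 99.57% to 99.74%.

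Starts 1 base earlier made up a large part of miR-101a-3p. Their share of its reads was 26.7%, 17.6% and 16.5% in NAFLD 1, 2 and 3 and 27.0%, 17.2% and 27.3% in normal 1, 2 and 3, and the widest Wilson 95% interval (counting error only, since PCR reads are not independent molecules) ran from 16.4% to 18.9% in NAFLD 2. The values followed the substitution sets and not the disease groups. Group means were 20.3% ± 5.59 and 23.8% ± 5.70 (exact permutation p = 0.4, adjusted 0.7), while the within-set differences were -0.40 points in the low set and -0.17 points in the high set.

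For miR-101b-3p the share that started 1 base earlier was 15.8%, 8.12% and 7.23% in NAFLD 1, 2 and 3 and 15.01%, 7.03% and 15.3% in normal 1, 2 and 3. Here too the low-set libraries were high and the high-set libraries low, and the disease groups overlapped, at 10.4% ± 4.69 and 12.4% ± 4.68 (exact permutation p = 1). Within the sets NAFLD was 0.63 and 0.64 points above normal. For 30.3% of 33 miRNAs with at least 1000 reads in every library, the high set lay wholly below the low set in this share, as it did for both members, and for 6.06% it lay wholly above. The NAFLD group lay wholly below the normal group for 0% of the 33 and wholly above it for 6.06%, and neither member was among these. The share of miR-101a-3p was above that of miR-101b-3p in 6 of 6 libraries (miR-101b-3p minus miR-101a-3p, -10.7 ± 1.18 points, exact sign-flip permutation p = 0.03125).

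**Figure D2:**
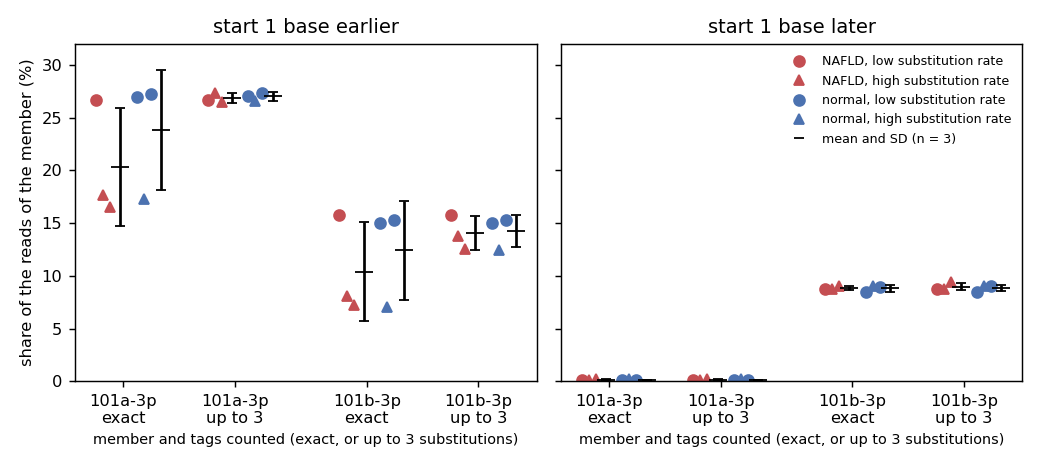
Share of reads starting 1 base before the mature start (left, y axis in percent) and 1 base after it (right, y axis in percent) for both members and both ways of counting (x axis), with 3 NAFLD and 3 normal libraries as points and means with SD as bars. By exact match the libraries split by substitution set in the left panel, and for miR-101a-3p they draw together at 26.5% to 27.4% once up to 3 substitutions are counted.

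Allowing up to 3 substitutions removed the split for miR-101a-3p and narrowed it for miR-101b-3p. miR-101a-3p then had an earlier-start share of 26.7%, 27.4% and 26.5% in NAFLD 1, 2 and 3 and 27.1%, 26.6% and 27.4% in normal 1, 2 and 3. All 6 livers lay within 1 point of one another. miR-101b-3p had 15.8%, 13.8% and 12.6% in NAFLD 1, 2 and 3 and 15.03%, 12.5% and 15.3% in normal 1, 2 and 3, so its sets stayed apart, at 15.4% ± 0.395 and 13.0% ± 0.739. In the high set, 51.0% to 53.4% of the miR-101a-3p reads of this start carried 1 to 3 substitutions, against 14.7% to 15.1% of those at the mature start. In the low set these were 0.837% to 1.42% and 0.782% to 1.04%.

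Among the 33 miRNAs with at least 1000 reads in every library, miR-101a-3p ranked 1 and miR-101b-3p ranked 3 in the mean share starting 1 base earlier, at 22.1% and 11.4%. miR-122-3p, the other arm of the miR-122 hairpin, lay between them at 15.5%, followed by miR-199a-3p at 6.39% and miR-1839-5p at 1.302%. The remaining miRNAs had lower mean shares than these.

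Starts 1 base later separated the members too. In miR-101b-3p their share was 8.76%, 8.70% and 9.03% in NAFLD 1, 2 and 3 and 8.47%, 9.07% and 8.94% in normal 1, 2 and 3. The disease groups overlapped and neither substitution set stood apart, with group means of 8.83% ± 0.176 and 8.82% ± 0.318 (exact permutation p = 1). Of the 33 miRNAs, NAFLD lay wholly below normal in this share for 3.03% and wholly above for 9.09%, and the high set wholly below the low set for 15.2% and wholly above for 18.2%. By mean share miR-101b-3p ranked 6 and miR-101a-3p ranked 15 of the 33, below miR-140-3p at 45.2% and miR-1839-5p at 13.3%, among others. miR-101a-3p had 0.0864% to 0.165% of its reads at this start, 4 to 9 reads per library. miR-101b-3p exceeded it 54.6-fold to 102-fold in 6 of 6 libraries (difference 8.70 ± 0.207 points, exact sign-flip permutation p = 0.03125).

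The 3′ ends of miR-101b-3p differed with the 5′ start, and those of miR-101a-3p did so less. The last base of a read is numbered here from mature base 1, so that position 21 is the end of the listed sequence, whether or not the last bases equal the hairpin. miR-101b-3p reads with the mature start ended most often at base 22 (41.7% on average over 6 libraries), reads that started earlier ended at base 20 (44.7%) or base 21 (44.3%), and reads that started later ended mostly at base 23 (63.8%). Over the libraries the mean lengths of miR-101b-3p were 21.5 to 21.7 nucleotides at the mature start, 21.6 to 21.8 at the earlier start and 21.4 to 21.7 at the later start. miR-101a-3p reads ended chiefly at base 20, in 40.4% at the mature start and 53.9% at the earlier start. Base 22 was the end of 24.6% of miR-101a-3p reads at the mature start and 5.48% at the earlier start. The earlier form of miR-101a-3p was the longer, at 21.47 to 21.58 nucleotides against 20.79 to 20.95 at the mature start.

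**Figure D3:**
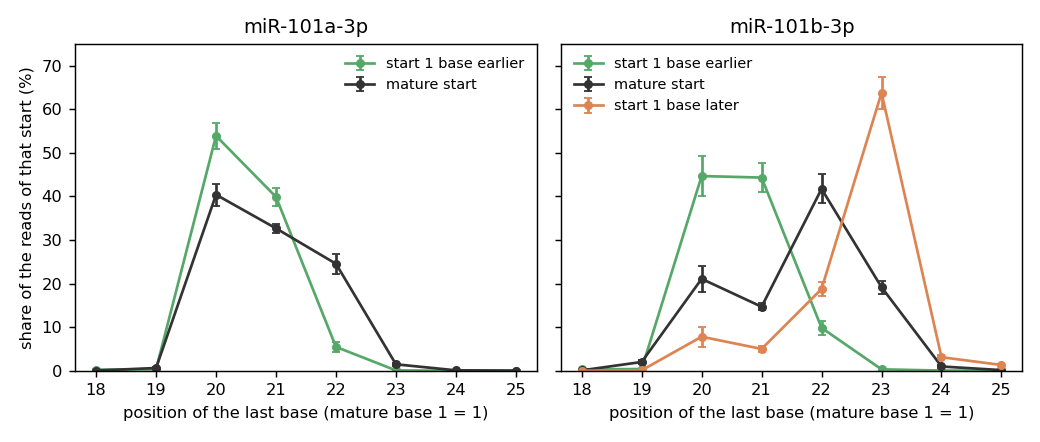
Share of the reads of each start (y axis, percent) by the position of their last base (x axis, mature base 1 = 1) for miR-101a-3p (left) and miR-101b-3p (right), as mean and SD over 6 libraries. For miR-101b-3p the peak moves from bases 20 and 21 through base 22 to base 23 as the start moves from 1 base earlier to 1 base later.

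Reads of both members had a lower mean length in every NAFLD liver than in every normal liver, a design in which 3 against 3 cannot give a p under 0.1. The mean length of miR-101a-3p reads at the mature start was 20.83, 20.84 and 20.79 nucleotides in NAFLD 1, 2 and 3 and 20.89, 20.95 and 20.88 nucleotides in normal 1, 2 and 3. That of miR-101b-3p was 21.50, 21.49 and 21.54 nucleotides in NAFLD 1, 2 and 3 and 21.61, 21.74 and 21.63 nucleotides in normal 1, 2 and 3. The groups did not overlap for either member, as was so for 18.2% of the 33 miRNAs with at least 1000 reads in every library (6 of 33), while 0 of 33 were apart in the other direction. For 30.3% of the 33 the high set lay wholly above the low set, and neither member was among these.

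The difference for miR-101a-3p was -0.0878 nucleotides (20.82 ± 0.0275 against 20.91 ± 0.0362) and that for miR-101b-3p -0.147 nucleotides (21.51 ± 0.0232 against 21.66 ± 0.0705). Each had an exact permutation p of 0.1, and 0.35 after adjustment over 7 tests. Among the miRNAs of the 33 with a lower mean length in NAFLD, miR-122-3p had the largest difference (-0.264 nucleotides), then miR-101b-3p, miR-21-5p and miR-101a-3p. In the other direction miR-140-3p (0.226) and miR-378a-3p (0.196) differed by more than miR-101b-3p, with overlapping groups.

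The shorter mean lengths came with a larger share of reads ending at base 20 and a smaller share ending at base 22. For miR-101b-3p the share ending at base 20 was 23.1%, 24.1% and 23.7% in NAFLD 1, 2 and 3 and 19.9%, 17.1% and 18.7% in normal 1, 2 and 3. Its share ending at base 22 was 40.8%, 38.3% and 37.5% in NAFLD 1, 2 and 3 and 44.0%, 45.5% and 44.3% in normal 1, 2 and 3. Neither share overlapped between the groups, and the mean differences were 5.10 and -5.70 points (exact permutation p = 0.1 each). The shares ending at base 21 and base 23 overlapped.

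miR-101a-3p differed at the same positions. Its share ending at base 20 was 41.8%, 41.1% and 44.2% in NAFLD 1, 2 and 3 and 39.6%, 37.0% and 38.8% in normal 1, 2 and 3, a mean difference of 3.90 points. Its share ending at base 22 was 23.3%, 22.8% and 21.5% in NAFLD 1, 2 and 3 and 26.9%, 27.0% and 25.9% in normal 1, 2 and 3, a mean difference of -4.09 points. Both were apart between the groups, with an exact permutation p of 0.1 each, and the share ending at base 21 was not (exact permutation p = 1). Here too the p-values were not adjusted and other miRNAs were not measured.

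**Figure D4:**
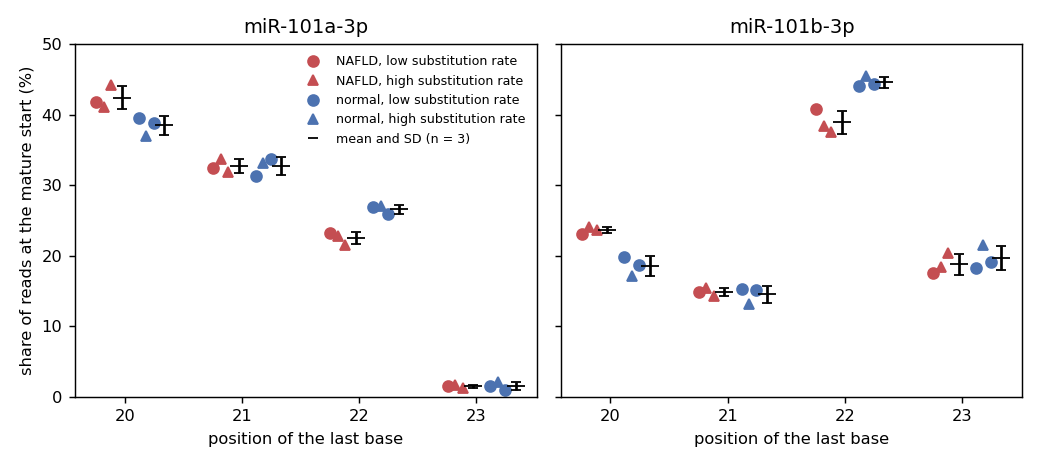
Share of mature-start reads (y axis, percent) by the position of their last base (x axis, mature base 1 = 1) in 3 NAFLD and 3 normal libraries for both members, with points for single libraries (circles low, triangles high substitution set) and bars for group means with SD. NAFLD points lie above the normal points at base 20 and below them at base 22 for both members.

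The levels of the leading tags, chosen by total reads, stood behind these shares. The miR-101b-3p tag tACAGTACtgtgatagctgaag, which ends at base 22 and equals the hairpin, had 972, 658 and 771 TPM in NAFLD 1, 2 and 3 and 1272, 977 and 1149 TPM in normal 1, 2 and 3. Every NAFLD liver was below every normal liver, though NAFLD 1 and normal 2 were close. The tag tACAGTACtgtgatagctga, which ends at base 20, had 619, 465 and 553 TPM in NAFLD 1, 2 and 3 and 651, 411 and 546 TPM in normal 1, 2 and 3, and its groups overlapped. So did those of tACAGTACtgtgatagctgaa and tACAGTACtgtgatagctgaaa. Leading tags ending at base 23 were also wholly lower in NAFLD, although the share ending there overlapped. In order of replicate, tACAGTACtgtgatagctgaagt had 356, 275 and 355 TPM in NAFLD and 459, 384 and 416 TPM in normal. For tACAGTACtgtgatagctgaaga these were 131, 91.2 and 137 TPM and 161, 154 and 170 TPM. The leading miR-101a-3p tag, which ends at base 20, was at 142 ± 36.7 TPM in NAFLD and 141 ± 40.9 TPM in normal, and its groups overlapped. So did those of the leading miR-101a-3p tags ending at base 22. How many of all tags had groups apart was not counted.

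Part of the reads of both members ended in bases that the hairpin does not hold. For miR-101a-3p these were 20.97%, 20.999% and 19.4% in NAFLD 1, 2 and 3 and 23.3%, 24.5% and 23.1% in normal 1, 2 and 3. The NAFLD livers were all below the normal livers (20.4% ± 0.945 against 23.6% ± 0.769, exact permutation p = 0.1). That p is the smallest that 3 against 3 allows and was not adjusted. Shares off the hairpin were not measured for miRNAs outside the family. For miR-101b-3p the share was 23.2% ± 1.46 in NAFLD and 24.1% ± 1.48 in normal, with overlap (exact permutation p = 0.4). The most frequent such tags were tACAGTACtgtgataactgaat for miR-101a-3p, at 25.1 to 52.4 TPM, and tACAGTACtgtgatagctgaagt for miR-101b-3p, at 275 to 459 TPM, each with a T in place of the next hairpin base.

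The opposite arms of the hairpins were nearly absent. miR-101a-5p and miR-101b-5p had 0 to 2 reads in each library, and a count of 0 allows up to 0.253 to 0.259 TPM. miR-144-3p, which shares bases 2 to 7 with the family, had 17.7, 5.95 and 12.6 TPM in NAFLD 1, 2 and 3 and 8.94, 3.37 and 6.99 TPM in normal 1, 2 and 3. Its groups overlapped, and edgeR gave a log2 fold change of 0.91 (SE 0.49, adjusted p = 0.986).

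**Figure D5:**
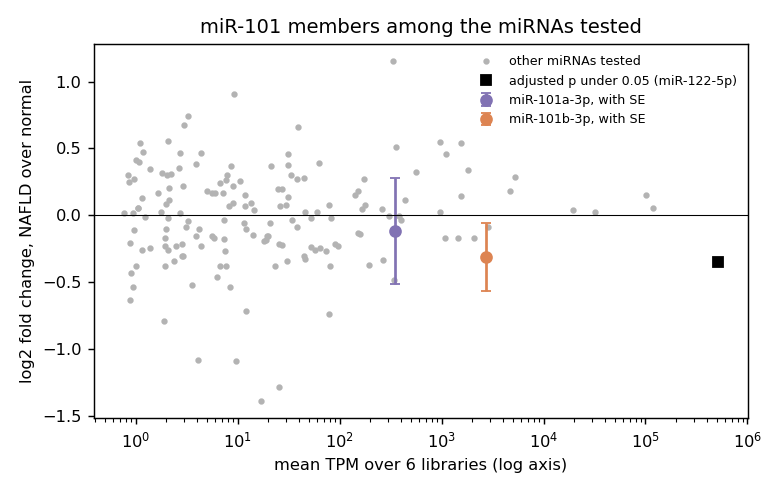
Fold change of NAFLD over normal (y axis, log2) against mean level over 6 libraries (x axis, TPM on a log scale) for 167 tested miRNAs, with the 2 members and their SE in colour and miR-122-5p as a square. miR-101a-3p lies at -0.12 among miRNAs of like level. miR-101b-3p lies at -0.32, below miR-29a-3p (-0.09) and miR-21-5p (-0.17), the miRNAs next to it in level, and was not called.

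The other miRNAs listed as known to repress Ezh2 were described by their counts. Of a list of 6 (miR-26a-5p, miR-26b-5p, miR-138-5p, miR-214-3p, miR-124-3p and let-7a-5p), 4 were tested and 0 were called higher or lower, with a median log2 fold change of -0.06 against 0.02 over all tested miRNAs, of which 0.599% were called. In this list miR-124-3p had no reference sequence and was not counted. With 4 tested, a count of 0 is near that background. The values were -0.17 for miR-26a-5p, -0.17 for miR-26b-5p, 0.38 for miR-214-3p and 0.05 for let-7a-5p, which shares its first 18 bases with let-7c-5p. Of 7 abundant hepatocyte miRNAs, 1 was called lower and 0 higher, with a median of -0.34. The called one was miR-122-5p (log2 fold change -0.35, SE 0.04, edgeR adjusted p = 0.000532), the single call among all 167 (0.599%). No miRNA, miR-122-5p included, was called by edgeR with TMM factors, by limma, or by edgeR with 1 substitution and TMM factors, where 12, 2 and 20 had an unadjusted p under 0.05.

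Markers of other liver cells were summed, since tissue pieces hold several cell types. The fit held 3 of 3 stellate, 2 of 2 endothelial, 2 of 2 smooth muscle, 2 of 3 erythroid, 2 of 5 leukocyte and 1 of 4 biliary epithelial markers. Erythroid miR-486, leukocyte miR-150-5p and biliary miR-200a-3p and miR-200b-3p had no reference sequence. They were not counted, and the sums leave them out. Leukocyte miR-142-3p and miR-155-5p and biliary miR-141-3p were counted but had too few reads for the fit. The stellate cell list summed to 404 to 446 TPM in NAFLD and 213 to 390 TPM in normal and was the only one of these sums with NAFLD wholly above normal. Nearly all of it was miR-199a-3p, at 439, 400 and 430 TPM in NAFLD 1, 2 and 3 and 294, 210 and 384 TPM in normal 1, 2 and 3, while miR-199a-5p and miR-214-3p overlapped between the groups. Single miRNAs with NAFLD wholly above normal made up 2.99% of the 167 tested, miR-199a-3p among them. The endothelial sum was 23.5 to 48.4 TPM in NAFLD and 14.7 to 41.1 TPM in normal, the smooth muscle sum 128 to 219 and 129 to 277, and the erythroid sum 24.0 to 67.0 and 26.3 to 42.9. The leukocyte sum was 7.48 to 15.3 and 3.96 to 13.4, and the biliary epithelial sum 0.765 to 2.03 and 1.77 to 2.95, with miR-141-3p at 0 in NAFLD 2 and normal 2. Of the markers in the fit, 0 were called by edgeR. Their part in the miR-101 values was not tested.

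The miRNAs whose pattern over the 6 libraries was most like each member were sought among 36 others with a mean of at least 100 TPM, by the root mean square difference of centred log2(TPM + 1). For miR-101a-3p they were miR-10a-5p (0.0913), miR-143-3p (0.123) and the pair miR-23a-3p and miR-23b-3p counted together (0.136), against a median of 0.318, and miR-101b-3p ranked 7 (0.181). For miR-101b-3p they were miR-101a-3p (0.181), miR-143-3p (0.203) and miR-122-5p (0.206), against a median of 0.373. Both substitution sets are among the 6 libraries, and their part in these patterns was not tested.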

How the data were processed

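The data are counts of unique small RNA tags from the livers of 3 NAFLD and 3 normal Wistar rats, 1 library per rat. The authors purified small RNA of 18 to 30 nucleotides, ligated adaptors and sequenced on an Illumina instrument. Per the study's methods, low-quality reads, adaptor contaminants, reads without an insert, poly A reads and reads under 18 nucleotides were removed. The deposited counts are raw counts of clean tags, not filtered for a genome match, so no alignment enters here. The same tags in FASTA form were not used, and the processing logs gave only the total of clean reads per library.

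Tags were matched by their first 18 bases to RefSeq mature miRNAs (GRCr8; 693 names, 7 under 18 nucleotides left out, and names with the same 18 bases merged). TPM is reads per 1000000 clean reads. edgeR 4.0.16 (R 4.3.3) fitted all features passing its expression filter, with total clean reads as library size and Benjamini-Hochberg adjustment at 0.05. Shares and lengths were compared by two-sided exact permutation in Python 3.11.15 with scipy 1.17.1. Scripts were tested on simulated data.

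Alternatives were TMM factors, DESeq2 1.42.0, limma 3.58.1 on log2(TPM + 1), no filter, the substitution set as covariate, a replicate block, 1 substitution, other match lengths, and each library left out. Counting with up to 3 substitutions, and 1 substitution with TMM, were chosen after the data were seen. The members, lists and named miRNAs (both members, their other arms, seed sharers, miR-144-3p, fixed lists and the 3 most like miRNAs) were chosen with earlier results of these data known. The p-values rest on 3 rats per group.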

Additional observations from a re-analysis of the deposited data

How the results depend on the processing

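For miR-101b-3p the log2 fold change stayed below 0 and was not called in any of 11 other settings (-0.44 to -0.20, adjusted p 0.213 to 1.00) and in each omission of 1 library (-0.43 to -0.20). The -0.44 came from 1 substitution with TMM factors (SE 0.13, edgeR adjusted p = 0.213). For miR-101a-3p it was not called in any, but turned to 0.10 with the substitution set as covariate (adjusted p = 0.872), and ranged from -0.32 to 0.05 over omissions, at 0.053 without NAFLD 2 and 0.0043 without normal 1. The median of all tested miRNAs moved likewise, to 0.24, 0.15 and 0.16 in these 3 fits from 0.02, and relative to it miR-101a-3p was at -0.14, -0.10 and -0.15, against -0.14, so its sign relative to the median did not turn. A replicate block gave -0.11 and -0.32 (adjusted p = 0.983 each). The numbers were not shown to pair the rats (same-number correlations 0.149, 0.340 and -0.541). The count of called miRNAs was 1. It was 0 with TMM factors (12 at unadjusted p under 0.05), limma (2), and 1 substitution with TMM factors (20), and 1 to 2 over omissions, with 2 without NAFLD 1. The later-start share of miR-101b-3p, 0.00726 points higher in NAFLD, became -0.246 with 20 matched bases and -0.244 with tags of 20 nucleotides or more, and ranged from -0.172 (without normal 1) to 0.129 over omissions, with -0.0925 without NAFLD 3. The other differences in shares kept their sign in the settings run, and those in mean length, whose groups do not overlap, could not turn by omissions. None of the settings for shares held the substitution set fixed. Within the low and high sets the earlier-start difference of miR-101b-3p was 0.63 and 0.64 points, against -2.06 over all libraries. The later-start difference of miR-101a-3p was 0.0480 and -0.0245 points within these sets, against 0.0248 over all libraries. The causes were not tested. Omissions moved the earlier-start differences from -6.82 to -1.65 (miR-101a-3p) and -4.77 to -0.493 (miR-101b-3p), the family share from -1.98 to -0.598, and the mean lengths from -0.102 to -0.0673 and -0.172 to -0.107.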

Other observations

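Of the 33 miRNAs with at least 1000 reads in every library, 6 had every NAFLD liver below every normal liver in mean length at the mature start. Besides the 2 miR-101 members, these were miR-122-3p, miR-143-3p, miR-25-3p and the pair miR-103-3p and miR-107-3p. This list was read after the values were seen, and its members were not tested beyond the exact permutation p of 0.1 that 3 against 3 allows.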
